A study of Mus musculus with 44 samples.

Results

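The complement genes C1qa, C1qb, C1qc, C1ra, C4b, C3, C3ar1, Serping1 and Cd59a were followed through mouse dorsal root ganglia, the clusters of sensory neurons beside the spinal cord. They were taken by gene symbol from expression tables of sorted satellite glial cells, of unsorted ganglia and of isolated neurons. They are 9 of the 45882 genes in the glial tables, in which all 9 were listed. The neuron table lists 12170 genes and, of the 9, only Serping1 and Cd59a. The others have no values by library there. Expression is given as FPKM, the fragments of a gene divided by its length in kilobases and by the size of the library.

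All animals were C57BL/6 mice. Naive satellite glial cells (4 libraries) and naive ganglia (4 libraries) came from L3 and L4 ganglia of mice aged 9 weeks. The ganglia were dissociated with enzymes and fixed with paraformaldehyde in both cases, and only the glia were then stained and sorted by flow cytometry. Satellite glia from mice aged 9 to 11 weeks were prepared in the same way after a full ligation of the sciatic nerve or a sham operation, at 3 and at 14 days, with 4 libraries in each of these 4 groups. Neurons came from L3 to L5 ganglia of mice aged 9 to 11 weeks at 8 days, by magnetic isolation with no fixation. They formed 6 groups. A partial ligation was studied on the ligated and on the opposite side (4 libraries each), and ligated and sham mice were studied on the operated side in males and in females (3 libraries in each of these 4 groups). The labels do not say whether libraries came from separate or pooled animals, so p-values measure the spread between these libraries, which may be technical.

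Complement is a cascade of proteins that marks and lyses cells. In the classical pathway, C1q, built from the chains encoded by C1qa, C1qb and C1qc, binds a surface and switches on the protease C1r. C1r activates the protease C1s, which cuts C4 and C2 so that C3 is cut in turn. The pathway is held back by inhibitors, among them C1 inhibitor (Serping1), which blocks C1r and C1s, and CD59 (Cd59a), which stops the assembly of the membrane attack complex. In nervous tissue C1q is known as a product of macrophages and microglia, and C4 as a product of glia.

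The libraries held 10225 to 13173 genes at or above 1 FPKM, and their read depth is unknown because no counts or totals were analysed here. The preparations matched their labels on satellite glial, macrophage and neuron markers. The 10 satellite glial markers summed to 16952 to 24423 FPKM in the naive glia and to 6061 to 9329 FPKM in the ganglia, and 14 macrophage markers summed to 7.56 to 15.8 FPKM against 121 to 142 FPKM. Neuron markers (11 listed) summed to 94.3 to 276 FPKM in the naive glia and to 170.1 to 792 FPKM in the glia after surgery. They summed to 6893 to 10289 FPKM in the isolated neurons, in which 5 markers of myelinating Schwann cells still summed to 725 to 2845 FPKM. In glia and ganglia 8 such Schwann markers were listed. Their sum was 559 to 620 FPKM in the naive glia, 1255 to 1687.5 FPKM in the ganglia and 487 to 631 FPKM in the glia after surgery. The part of Schwann cells in the results was not tested. Atf3, a transcription factor induced in injured neurons, was at 15.5 to 90.9 FPKM in the ligated glial libraries and at 1.48 to 12.6 FPKM in the sham ones, without overlap. In neurons Atf3 was at 62.3 to 445 FPKM after ligation and at 3.05 to 30.2 FPKM in sham and opposite-side libraries. Gal, which encodes the neuropeptide galanin, was at 236 to 2176 FPKM in the ligated glial libraries and at 4.39 to 197 FPKM in the sham ones. Of 5 erythrocyte markers, the sum ran from 354 to 24162 FPKM over the neuron libraries, from 10781 to 24162 FPKM on the ligated side and from 4088 to 18963 FPKM on the opposite side of the partially ligated mice, and its part in the neuron results was not tested. Library 3 of the 14-day sham glia stood apart in neutrophil markers, which summed to 167 FPKM there and to at most 0.114 FPKM in the other 3.

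In naive tissue, the satellite glia carried more C4b and Serping1 transcript than the unsorted ganglia, Cd59a transcript at levels that did not differ beyond the spread, and almost no C1q transcript. Of the 9 genes, 6 passed the filter of 1 FPKM in at least 4 libraries. Of these, limma called C4b and Serping1 higher in the glia at a Benjamini-Hochberg adjusted p under 0.05, against 16.9% of all 12907 genes tested, and did not call Cd59a. The other 3 are the C1q chains, which passed the filter only through the ganglia. Their calls (lower, against 27.9% of all genes) follow from the filter, so the total of 5 called, against 44.9%, supports nothing and their levels are given as a description. In bulk RNA, fewer cells of a type and less RNA per cell cannot be told apart.

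C4b, the complement component cut by the protease C1s, is encoded on chromosome 17 (GRCm38, chr17:34728380-34743882, minus strand). It was at 17.6, 38.3, 22.9 and 28.9 FPKM in the 4 naive glial libraries and at 12.1, 11.4, 15.3 and 16.6 FPKM in the 4 ganglion libraries. Every glial library lay above every ganglion library, although the lowest glial value was close to the highest ganglion value. The difference was 0.87 ± 0.24 (SE) in log2(FPKM + 1), with a limma adjusted p of 0.0168. Without ganglion library 1 it was 0.81, with an adjusted p of 0.0503. C4b shared 34.6% of its 50-base stretches with its near copy C4a, 65209 bases away, so reads could be split between them, and C4a was listed at 0 to 1.58 FPKM in these 8 libraries.

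Serping1 (chr2:84765387-84775444, minus strand) was at 71.3, 69.1, 75.6 and 78.2 FPKM in the naive glia. It was at 49.3, 61.5, 53.6 and 57.3 FPKM in the ganglia. The groups did not overlap, and the difference was 0.40 ± 0.11 (SE) in log2(FPKM + 1), with a limma adjusted p of 0.0183. The call was lost without ganglion library 1, where the adjusted p was 0.0599. Of all genes tested, 16.7% were higher in the glia with no overlap, as C4b and Serping1 were. Endothelial markers moved the same way: all 9 had a positive difference, against 43.9% of all genes. Of the 9, 4 were called higher in the glia, against 16.9% of all genes. They summed to 104 to 220 FPKM against 48.2 to 93.7 FPKM in the ganglia, without overlap. The sort did not set fibroblast markers apart: 7 of them summed to 327 to 1068 FPKM in the glia and to 595 to 1029 FPKM in the ganglia. Of the 6 tested, 2 had a positive and 4 a negative difference, and 1 was called higher in the glia, against the same 16.9%. Among them, Dcn was at 43.7 to 226 FPKM in the glia and 120 to 165 FPKM in the ganglia. The part of endothelial cells and fibroblasts in the C4b and Serping1 values was not tested.

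Cd59a (chr2:104095801-104115354, plus strand) was the highest of the 9 genes in both preparations. It was at 174, 190.4, 256 and 277 FPKM in the glia and at 228, 225, 231 and 231 FPKM in the ganglia. The ganglion values fell within the range of the glial ones. The difference of -0.06 had a 95% interval from -0.43 to 0.32 in log2(FPKM + 1), and it turned to 0.27 after quantile normalization. That scaling moved the median difference of all genes from -0.12 to 0.16 and the calls from 2184 higher and 3605 lower to 3701 higher and 2691 lower. Relative to these medians, C4b differed by 0.996 as deposited and by 0.89 after the scaling, Serping1 by 0.53 and 0.48, and Cd59a by 0.07 and 0.11.

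The C1q chains are encoded side by side on the minus strand of chromosome 4, C1qb at chr4:136880129-136886187, C1qc at chr4:136889804-136893065 and C1qa at chr4:136895917-136898803. C1qa was listed at 0 in all 4 glial libraries and at 1.47, 1.90, 1.21 and 1.34 FPKM in the ganglia. C1qb was at 0, 0, 0.351 and 0.0796 FPKM in the glia and at 6.31, 6.67, 4.16 and 8.00 FPKM in the ganglia. C1qc was at 0.0774, 0, 0 and 0 FPKM in the glia and at 4.11, 4.15, 3.35 and 2.92 FPKM in the ganglia. For each of the 3 chains, every glial library lay below every ganglion library, as for 27.1% of all genes tested. No glial library reached 1 FPKM, so the filter fixed this order in advance and it supports nothing. As a description only, C1qb differed by -2.70 ± 0.21 (SE) and C1qc by -2.18 ± 0.15 (SE) in log2(FPKM + 1). Of 14 macrophage markers, 10 were tested and all 10 had a negative difference. limma called 9 of them lower in the glia, against 27.9% of all genes. Some, such as Csf1r, reached 1 FPKM only in the ganglia, so their direction follows from the filter, as for C1q. These calls are therefore a description only. Among these markers, Csf1r was at 0 to 0.274 FPKM in the glia and 1.36 to 1.60 FPKM in the ganglia. Cx3cr1 was at 0 to 0.682 and 0.497 to 0.762 FPKM, and Tyrobp at 0 to 2.40 and 28.5 to 38.1 FPKM. Aif1 was at 0 to 2.27 and 4.91 to 7.04 FPKM. Markers of other blood cells were lower in the glia as well. Neutrophil markers summed to 0 to 0.143 FPKM in the glia and 495 to 594 FPKM in the ganglia. Lymphocyte markers summed to 0 to 0.801 and 8.89 to 12.1 FPKM, and erythrocyte markers to 0.704 to 1.11 and 1352 to 3220 FPKM. The part of all these cells in the C1q difference was not tested.

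The 250 bases before the RefSeq gene start (GRCm38.p6) of C1qb and C1qc, which were low together in the glia, and of Cd59a, which was high in every preparation, are shown to let the neighbouring C1q genes be compared with a gene of another pattern. They are printed on the strand of each gene at chr4:136886201-136886450, chr4:136892915-136893164 and chr2:104095551-104095800. Capitals mark motif matches.
C1qb upstream: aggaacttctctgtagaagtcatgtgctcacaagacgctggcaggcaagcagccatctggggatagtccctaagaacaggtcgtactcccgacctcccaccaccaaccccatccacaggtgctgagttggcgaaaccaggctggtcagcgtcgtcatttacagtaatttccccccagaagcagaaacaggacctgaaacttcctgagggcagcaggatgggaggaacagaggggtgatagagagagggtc
C1qc upstream: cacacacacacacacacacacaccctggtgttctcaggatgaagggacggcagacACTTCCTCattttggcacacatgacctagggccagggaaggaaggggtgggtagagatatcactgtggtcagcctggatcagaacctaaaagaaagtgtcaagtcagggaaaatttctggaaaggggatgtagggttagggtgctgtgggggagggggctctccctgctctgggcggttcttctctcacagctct
Cd59a upstream: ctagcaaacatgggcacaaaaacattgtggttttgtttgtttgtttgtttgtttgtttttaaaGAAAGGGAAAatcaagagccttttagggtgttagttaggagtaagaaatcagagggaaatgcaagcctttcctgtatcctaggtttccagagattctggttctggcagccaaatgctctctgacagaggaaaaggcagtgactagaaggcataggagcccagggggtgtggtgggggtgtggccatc
Of the 9 genes, 6 matched an entry in the RefSeq promoter table (C1qb, C1qc, C1ra, C3, C3ar1 and Cd59a), and C4b, Serping1 and C1qa are named only. The 6 motifs below were searched on both strands in the 250 bases before the start of each of 32851 promoters. The RefSeq starts of C1qc, C1ra and C3ar1 lie inside the gene spans by the gene coordinates used here, so part of each of these windows lies within its gene. C1qc held the letters GAGGAAGT of a PU.1 site, read on the other strand as ACTTCCTC, 195 to 188 bases before the start, and 2.44% of all promoters held them. Cd59a held GAAAGGGAAA, a match to the core of the interferon-stimulated response element, 187 to 178 bases before the start, and 2.98% of all promoters held that core. C3 held TTGCNNAA (C/EBP, 9.56% of promoters) and C3ar1 held TATAAA (12.4%). None of the 6 held TTCNNNGAA (STAT, 7.02%) or CACGTG (an E-box, 6.02%). No motif overlapped another in these windows, and a match is a description of letters only.

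The remaining 3 genes were at or below 1.27 FPKM in every naive library. C1ra, which encodes the protease C1r, was at 0.403 to 1.27 FPKM in the glia and 0.365 to 0.724 FPKM in the ganglia, with overlap. C3, the component on which the complement pathways meet, was at 0 to 0.0153 FPKM in the glia and 0.0398 to 0.260 FPKM in the ganglia. C3ar1, the receptor for the C3a fragment, was at 0 to 0.898 FPKM and 0.687 to 0.916 FPKM. In a wider list of 53 complement genes, 20 were tested, of which 3 were called higher and 6 lower in the glia, 3 of the 6 being the C1q chains. The shares over all genes were 16.9% higher and 27.9% lower. Since the calls of the C1q chains follow from the filter, the lower count cannot be weighed against its share. The median difference was -0.14 over the list, C1q chains included, and -0.12 over all genes. Beyond the genes above, the called genes were Csmd1, a complement inhibitor that was higher in the glia (1.09 ± 0.23 SE, limma adjusted p = 0.00499), and, lower in the glia, Clu, the fluid-phase inhibitor clusterin (-3.07 ± 0.28), Susd4 (-2.24 ± 0.27) and Cd55 (-0.91 ± 0.17), a membrane inhibitor of the C3 convertase. Clu was at 16.3 to 27.6 FPKM in the glia and 114 to 259 FPKM in the ganglia, and Cd55 at 10.04 to 13.1 and 19.2 to 28.7 FPKM.

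**Figure D1:**
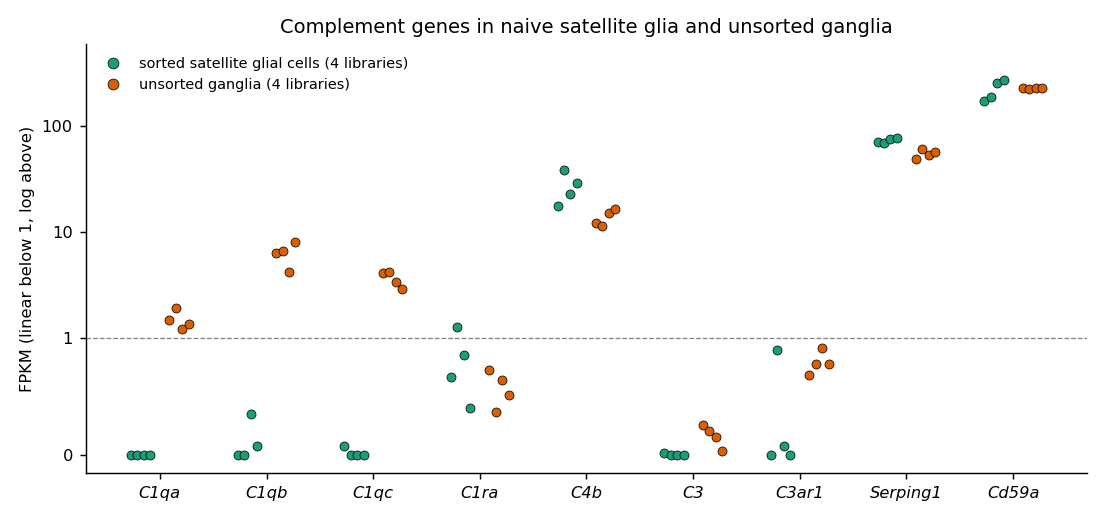
FPKM of the 9 complement genes (x axis) in each of 4 libraries of naive sorted satellite glial cells and of naive unsorted ganglia, on an axis that is linear below 1 FPKM and logarithmic above, with the dashed line at 1 FPKM. C4b and Serping1 lie higher in the glia, the C1q chains lie at or near 0 there, and Cd59a overlaps.

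After nerve ligation, C4b, Serping1, Cd59a and C1ra had higher mean levels in the ligated than in the sham satellite glia at both times, and none of these differences was called by limma. The other 5 genes stayed below the filter of 1 FPKM in at least 4 of the 16 libraries. At 3 days, 0 of the 4 tested genes were called, against 0.0646% of all 13924 genes tested, and at 14 days 0 of 4, against 0.00718%. Of Atf3 and Gal, which check the injury labels, the same fit called 2 of 2 at 3 days and 0 of 2 at 14 days. Their median difference at 14 days was 3.09, so the lack of a call at that time says little. At an unadjusted p under 0.05, 4 of 4 passed at 3 days, against 9.11% of all genes, and 3 of 4 at 14 days, against 5.16%. C1ra, 1 of the 4, passed the filter mostly through the ligated libraries. Its direction was thus favoured by the filter, and its part in these counts and in the medians below supports nothing. The median difference of the 4 genes was 0.49 at 3 days and 0.58 at 14 days, and that of all genes was -0.01 and -0.02.

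C4b at 3 days was at 66.4, 68.1, 45.1 and 49.7 FPKM after sham and at 78.8, 89.3, 98.8 and 67.2 FPKM after ligation. The lowest ligated library lay just under the highest sham library. The means were 57.3 ± 11.6 (SD) and 83.5 ± 13.6 FPKM, a ratio of 1.46, and the difference of 0.54 ± 0.20 (SE) in log2(FPKM + 1) had a limma adjusted p of 0.418. At 14 days C4b was at 45.6, 42.9, 45.3 and 32.9 FPKM after sham and at 59.6, 61.7, 101 and 80.6 FPKM after ligation. All 4 ligated libraries lay above all 4 sham libraries. The difference was 0.82 ± 0.20 (SE), a ratio of means of 1.82, with a limma adjusted p of 0.409 and a 95% interval from 0.40 to 1.25. It was 0.68 without ligated library 3, the highest, and 0.87 without sham library 3, which stood apart in neutrophil markers.

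Serping1 at 3 days was at 51.3, 70.5, 71.2 and 76.7 FPKM after sham and at 96.6, 75.8, 90.3 and 100.4 FPKM after ligation. Of the ligated libraries, 3 lay above the sham range and 1 within it. The difference was 0.43 ± 0.16 (SE), with a limma adjusted p of 0.428. At 14 days Serping1 was at 92.5, 83.9, 80.9 and 68.8 FPKM after sham and at 119, 111, 164 and 131 FPKM after ligation. The groups did not overlap. The difference was 0.67 ± 0.16 (SE), a ratio of means of 1.61, with a limma adjusted p of 0.409 and a 95% interval from 0.33 to 1.01. Without ligated library 3 it was 0.56. Of all genes tested, 1.69% were higher in the ligated libraries of 14 days with no overlap, as C4b and Serping1 were.

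Cd59a at 3 days was at 205, 228, 179.7 and 197 FPKM after sham and at 313, 291, 274 and 222 FPKM after ligation. One ligated library fell below the highest sham library. The difference was 0.44 ± 0.13 (SE), with a limma adjusted p of 0.331. At 14 days Cd59a was at 221, 266, 196 and 194 FPKM after sham and at 293, 244, 275 and 269 FPKM after ligation, again with overlap. The difference there was 0.31 ± 0.13 (SE), with a limma adjusted p of 0.951. Cd59b, a near copy next to Cd59a that holds 3.87% of its 50-base stretches, was at 17.0 to 77.0 FPKM in these 16 libraries.

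C1ra (chr6:124512405-124523443, plus strand) was low throughout. At 3 days it was at 0.667, 0, 0.707 and 1.29 FPKM after sham and at 2.37, 1.33, 2.09 and 1.46 FPKM after ligation. The ligated libraries all lay above the sham ones, as for 1.79% of all genes. Because C1ra passed the filter mostly through ligated libraries, the filter favoured this order, and it is a description only. The difference was 0.80 ± 0.28 (SE), with a limma adjusted p of 0.396. At 14 days C1ra was at 1.44, 0.559, 0.594 and 0.775 FPKM after sham and at 1.81, 1.43, 2.25 and 0.850 FPKM after ligation, with overlap, and the difference was 0.48 ± 0.28 (SE), short of a limma call. C1ra shares 48.0% of its 50-base stretches with C1rb, so that reads could be split, and C1rb was at most 0.0322 FPKM in these libraries.

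**Figure D2:**
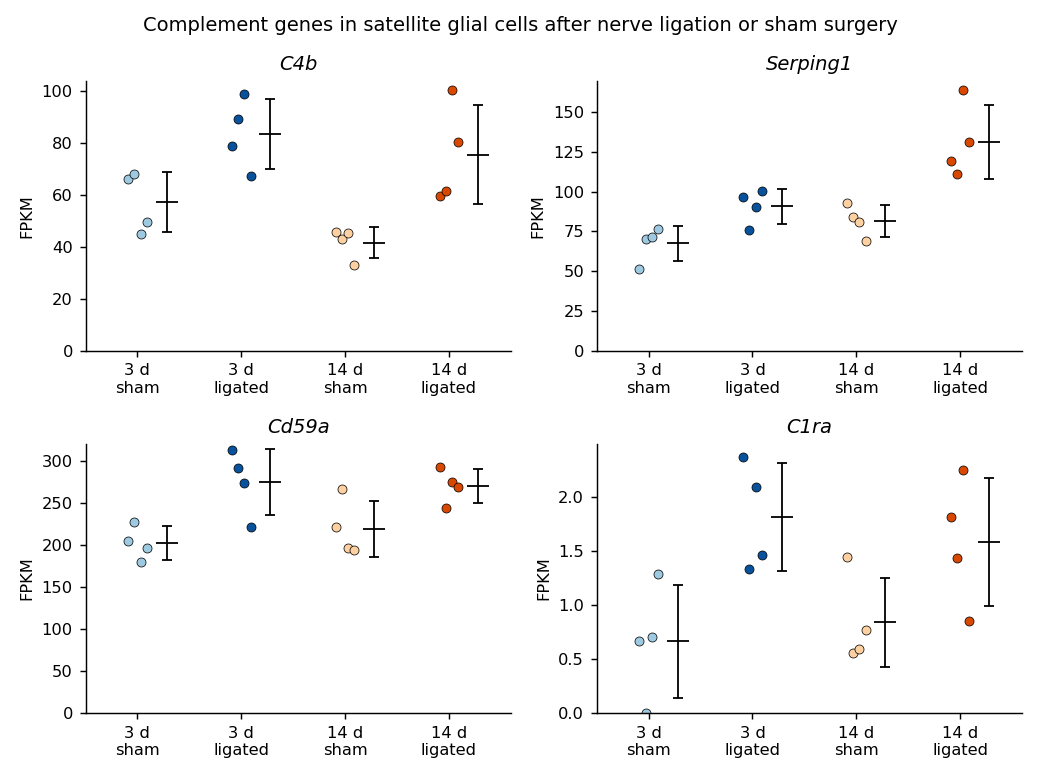
FPKM of C4b, Serping1, Cd59a and C1ra in sorted satellite glial cells, 4 libraries in each of 4 groups (x axis), each point a library, with the group mean and SD to its right. At 14 days the ligated libraries of C4b (59.6 to 101 FPKM) and of Serping1 (111 to 164 FPKM) lie above all sham libraries, while those of Cd59a overlap at both times.

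The effect of ligation was not shown to differ between the times. The 14-day difference minus the 3-day difference was 0.28 for C4b (95% interval -0.31 to 0.88), 0.24 for Serping1 (-0.24 to 0.72), -0.13 for Cd59a (-0.53 to 0.28) and -0.32 for C1ra (-1.16 to 0.52). None was called by limma (adjusted p = 0.9995 for each) and 0 of 4 passed an unadjusted p under 0.05, against 0.00718% and 4.19% of all genes. Between the sham groups themselves, C4b was 0.44 lower at 14 than at 3 days (95% interval of the difference -0.86 to -0.02, limma adjusted p = 0.967). Its sham values were 32.9 to 45.6 FPKM at 14 days and 45.1 to 68.1 FPKM at 3 days. The ligated values of C4b overlapped widely, at 67.2 to 98.8 FPKM at 3 days and 59.6 to 101 FPKM at 14 days. Serping1 differed by 0.28, Cd59a by 0.11 and C1ra by 0.18 between the sham groups. None of the 4 genes was called there and 1 passed an unadjusted p under 0.05, against 0% and 4.99% of all genes.

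The authors' deposited tables of their own comparisons, made with DESeq2 per the submitters' processing notes, called more genes. Their folds are given here as ligated over sham. The deposited sign was the reverse, since it was opposite to the FPKM difference for all but 1 of the genes checked in each glial table. In the authors' deposited table of 14 days, 3 of the 9 genes had an adjusted p under 0.05, against 1.05% of all genes. By DESeq2 these were C4b (log2 fold 0.93, adjusted p = 0.000214), Cd59a (0.41, adjusted p = 0.000214) and Serping1 (0.72, adjusted p = 0.00186), all higher after ligation, as were 0.641% of all genes. Of the wider list, that table also called Itgb2, a subunit of the complement receptors CR3 and CR4, at an adjusted p of 0.0408. Itgb2 was listed at 0 in all 4 sham libraries and at 0.727, 0.802, 0.276 and 0.293 FPKM in the ligated ones. In the authors' deposited table of 3 days, only C1qa of the 9 genes was called (adjusted p = 0.0230), against 1.01% of all genes. C4b had a log2 fold of 0.74 (adjusted p = 0.0812) and Serping1 of 0.45 (adjusted p = 0.246) by DESeq2 in that table.

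The C1q chains, C3 and C3ar1 stayed below the filter in the 16 libraries of glia after surgery, with single libraries up to 5.13 FPKM for C1qa and 6.42 FPKM for C1qb. C1qa was listed at 0 in all 4 sham libraries of 3 days and at 5.13, 0.273, 0.997 and 0.0431 FPKM in the ligated ones, so that library 1 held most of the signal. At 14 days C1qa was at 0.316, 0, 0 and 1.501 FPKM after sham and at 0.342, 0.199, 2.16 and 0.0863 FPKM after ligation. C1qb at 14 days was at 0.522, 0.787, 0.986 and 0 FPKM after sham and at 2.53, 6.42, 1.45 and 0.773 FPKM after ligation, with overlap. At 3 days C1qb was at most 0.426 FPKM after sham and 0.688 FPKM after ligation. C1qc was at most 0.413 FPKM in the 8 sham libraries, and in the ligated ones it was at 0, 1.71, 0.452 and 0.754 FPKM at 3 days and at 1.74, 0, 2.01 and 0 FPKM at 14 days. The 3 chains did not always rank the libraries alike. C1qb was highest in ligated library 2 of 14 days, where C1qc was listed at 0. In ligated library 3 of 14 days all 3 were raised, at 2.16 (C1qa), 1.45 (C1qb) and 2.01 FPKM (C1qc). Values this low cannot be given a counting error, so whether the chains vary together is not known. C3 was at most 0.141 FPKM in any of the 16 libraries, and C3ar1 at most 0.797 FPKM.

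Summed over its 3 chains, C1q was at 0, 0.0425, 0.839 and 0.232 FPKM in the 3-day sham libraries and at 5.17, 2.67, 1.49 and 1.24 FPKM in the ligated ones. At 14 days the sum was 0.872, 0.787, 0.986 and 1.54 FPKM after sham and 4.61, 6.62, 5.62 and 0.859 FPKM after ligation. The groups overlapped through ligated library 4 at 14 days. At 3 days they were apart by a small gap near the floor, 0.839 against 1.24 FPKM, with no share over all genes beside it. Different chains carried the ligated sum, C1qa at 5.13 FPKM in library 1 and C1qc at 1.71 FPKM in library 2. With no filter, the limma adjusted p at 3 days was 0.717 for C1qa, 0.726 for C1qc and 0.916 for C1qb. The 14 macrophage markers summed to 10.8 to 28.5 FPKM (sham) and 3.605 to 36.1 FPKM (ligated) at 3 days and to 13.7 to 33.1 and 24.0 to 51.9 FPKM at 14 days. At 3 days, library 1 of the ligated group had the highest C1q sum and the lowest macrophage sum. At 14 days 7 of the 8 macrophage markers tested had a positive difference, against 47.8% of all genes, with a median of 0.70. Of these, 0 of 8 were called, against 0.00718% of all genes. Csf1r was listed at 0 in all 14-day sham libraries and at 0.527, 0, 0.951 and 0.6998 FPKM after ligation, Cx3cr1 at 0.0125 to 0.473 and 0.00986 to 0.960 FPKM, Tyrobp at 0 to 8.99 and 0 to 11.1 FPKM, and Aif1 at 0 and 0 to 6.23 FPKM. For fibroblasts, Dcn was at 35.9 to 244 and 59.8 to 224 FPKM and Col1a1 at 2.33 to 7.16 and 1.81 to 12.7 FPKM. All 9 endothelial markers had a positive difference at both times (median 0.72 at 3 days and 0.47 at 14 days). Over all genes, 48.6% were positive at 3 days and 47.8% at 14 days. Of these 9, 0 were called, against 0.0646% and 0.00718% of all genes. They summed to 182 to 344 FPKM after sham and 269 to 507 FPKM after ligation at 3 days, and to 158 to 307 and 229 to 394 FPKM at 14 days. The 11 neuron markers summed to 207 to 462 FPKM after sham and 253 to 728 FPKM after ligation at 14 days, where 8 of 11 had a positive difference (median 0.36) and 0 were called, and 5 of 11 had a positive difference at 3 days. The part of these cells in the C4b, Serping1, Cd59a, C1ra and C1q values was not tested.

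**Figure D3:**
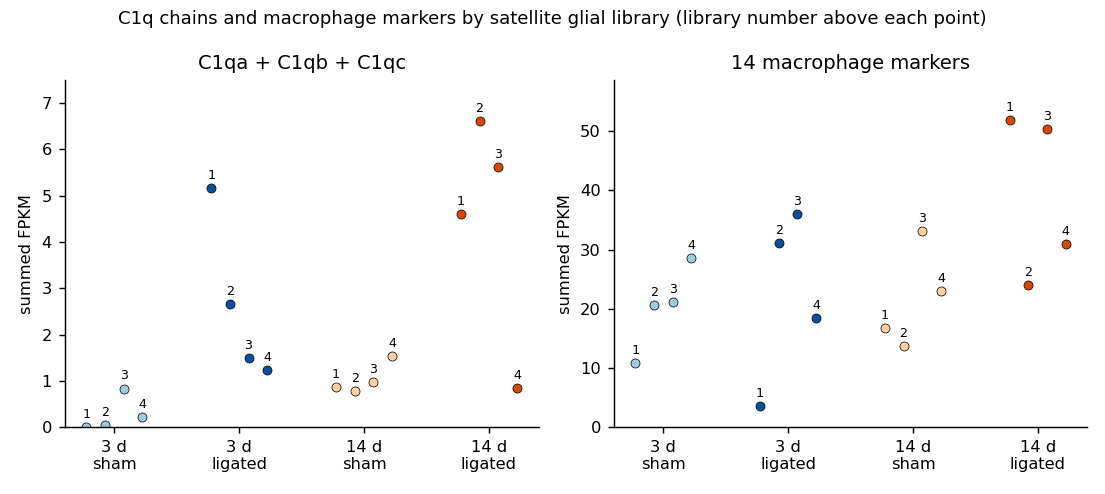
Summed FPKM of C1qa, C1qb and C1qc (left) and of 14 macrophage markers (right) in each sorted satellite glial library after surgery, with the library number above each point. Ligated library 1 of 3 days is highest of its group for C1q, at 5.17 FPKM, and lowest for the macrophage markers, at 3.605 FPKM.

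In the wider complement list, 23 of 53 genes were tested in the glia after surgery and 0 were called by limma in either comparison. At an unadjusted p under 0.05, 7 of 23 passed at 3 days, against 9.11% of all genes, and 6 of 23 at 14 days, against 5.16%. Of the 23, 13 had a positive difference at 3 days and 14 at 14 days, and the medians were 0.06 and 0.08. By size of the difference, the list was led at 3 days by Cr2, complement receptor 2 (1.04 ± 0.47 SE), Mbl2, a lectin pathway recognition protein (0.96 ± 0.35), and C1ra. At 14 days it was led by Cfb, factor B of the alternative pathway (1.14 ± 0.56), Cd46 (-1.11 ± 0.35) and Hc, complement C5 (-1.08 ± 0.49). All 5 of these genes besides C1ra lay at or under 5.89 FPKM in every glial library after surgery. In the authors' deposited glial tables Cfb had almost no signal, with a mean normalized signal of 0 at 3 days and 0.224 at 14 days. Its log2 fold at 14 days was -1.35 there, opposite in sign. Cd46 had a mean of 149 and a log2 fold of only -0.36 at 14 days. Hc at 14 days (-2.13) and Cr2 (2.18) and Mbl2 (3.88) at 3 days kept their sign. None of these genes was called there either.

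In isolated neurons 8 days after surgery, Serping1 and Cd59a were both abundant, and neither was called in any comparison. Serping1 was at 520.0, 399 and 299 FPKM in sham males and at 476, 447 and 302 FPKM in ligated males. It was at 504, 318 and 369 FPKM in sham females and at 340.4, 302 and 264 FPKM in ligated females. The groups overlapped in both sexes. The difference was 0.02 (95% interval -0.55 to 0.58) in males and -0.37 (-0.94 to 0.19) in females, and over both sexes -0.18 (-0.58 to 0.22, limma adjusted p = 0.999).

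Cd59a was at 111, 90.4 and 118 FPKM in sham males and at 121, 87.6 and 136 FPKM in ligated males. It was at 80.7, 114 and 107 FPKM in sham females and at 100.1, 128 and 122 FPKM in ligated females. These groups overlapped too. The difference over both sexes was 0.16 (95% interval -0.17 to 0.48, limma adjusted p = 0.999). Of the 2 genes, 0 were called and 0 passed an unadjusted p under 0.05, against 0.28% and 3.58% of all 12145 genes tested. The same held in males (0.00823% and 2.65%) and in females (0.148% and 2.52%). Atf3 and Gal were called over both sexes and in females, but not in males, where their median difference was 2.65. A lack of a call in males therefore says little. The authors' deposited neuron table gave Cd59a a log2 fold of 0.36 (adjusted p = 0.121) and Serping1 one of -0.14 (adjusted p = 0.852), against 1.7% of all genes called in it.

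The sexes were compared as well. The ligation effect in females minus that in males was -0.39 for Serping1 (95% interval -1.19 to 0.41) and 0.12 for Cd59a (-0.53 to 0.77). Sham females and sham males differed by -0.02 for Serping1 (-0.59 to 0.54), which turned to 0.0054 after quantile normalization, and by -0.08 for Cd59a (-0.54 to 0.38). No difference was called by limma and none passed an unadjusted p under 0.05, against 0% and 1.07% of all genes for the effect and 0.0247% and 1.24% for the shams.

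Between the ligated and the opposite side, Cd59a showed the larger difference. It was at 207, 185, 158 and 125 FPKM on the ligated side and at 97.2, 105, 112 and 135 FPKM on the opposite side. Of the ligated-side libraries, 3 lay above all opposite-side libraries. The difference was 0.57 ± 0.19 (SE), a ratio of means of 1.503, with a 95% interval from 0.17 to 0.97 and a limma adjusted p of 0.259. Serping1 was at 214, 266, 228 and 282 FPKM on the ligated side and at 303, 172, 382 and 298 FPKM on the opposite side, whose range covered it. Its difference was -0.17 (95% interval -0.66 to 0.32). Of the 2 genes 0 were called, against 0.667% of all genes, and 1 passed an unadjusted p under 0.05, against 9.85%. Dcn, a fibroblast gene, was at 14.7 to 26.1 FPKM on the ligated side and 2.17 to 13.9 FPKM on the opposite side, and 3 neutrophil markers summed to 0.451 to 7.94 FPKM and were listed at 0, and 6 endothelial markers summed to 20.4 to 55.5 FPKM and to 53.7 to 124 FPKM. Their part in the Cd59a difference was not tested. The labels do not say whether libraries of the 2 sides came from the same animals, and the fit treats them as separate.

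**Figure D4:**
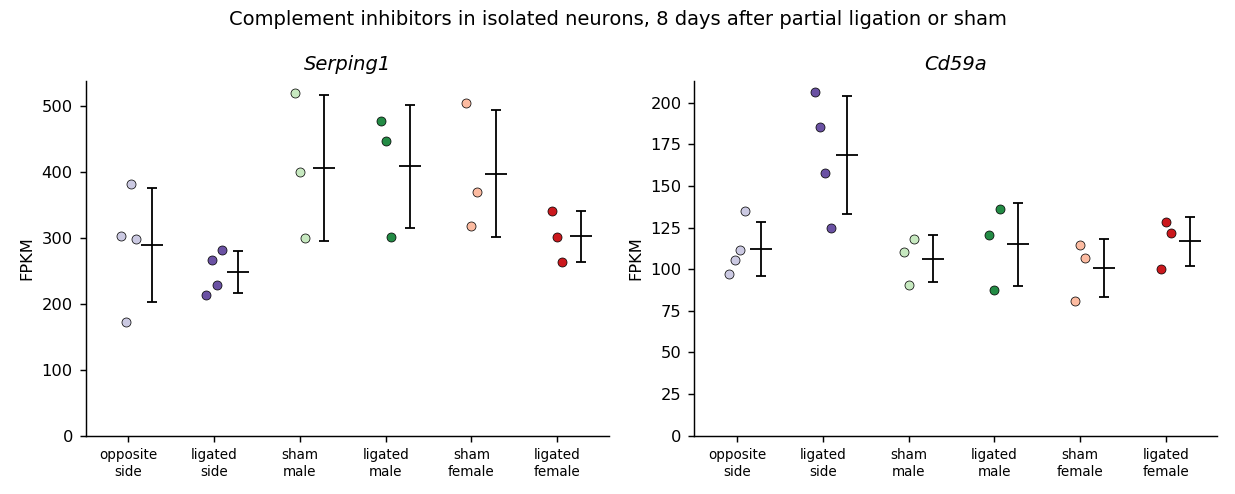
FPKM of Serping1 and Cd59a in isolated neurons 8 days after partial ligation or sham, in 6 groups (x axis), each point a library, with the group mean and SD to its right. Ligated and sham groups overlap in both sexes, and 3 of the 4 ligated-side libraries of Cd59a lie above the opposite side.

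The other 7 genes are given for the neurons from the authors' deposited table, which holds a mean normalized signal per gene, not scaled by gene length. That mean was 0.65 for C4b, 0.89 for C3, 0 for C1qa, 13.1 for C1qb, 0.03 for C1qc, 3.42 for C1ra and 1.69 for C3ar1. The same measure in the authors' deposited glial tables, at 3 and at 14 days, was 1959 and 1934 for C4b, 2.28 and 6.55 for C3, 17.8 and 12.5 for C1qa, 4.99 and 38.9 for C1qb, 11.4 and 13.03 for C1qc, 85.2 and 86.9 for C1ra, and 35.3 and 27.7 for C3ar1. The neuronal value was below both glial ones for 6 of the 7 genes and between them for C1qb. These tables were normalized separately, so the glial and neuronal values stand side by side without a test. C4a, the near copy of C4b, was at 0 to 12.5 FPKM in the neurons. Of the wider list of 53 genes, only 12 were listed by library for the neurons. All 12 were tested and 0 were called in any of the neuron comparisons. Over both sexes the list was led by C8g (0.75 ± 0.53 SE), Csmd1 (-0.55 ± 0.42) and C2 (0.43 ± 0.41), and between the sides by C4a (-1.68 ± 0.65), Cd59b (-1.11 ± 0.60) and Susd4 (0.64 ± 0.35). Among other inhibitors, Cd55 was at 215 to 479 FPKM and Clu at 55.3 to 337 FPKM in the neurons, against 7.24 to 21.3 and 25.0 to 66.0 FPKM in the separately normalized glia after surgery.

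**Figure D5:**
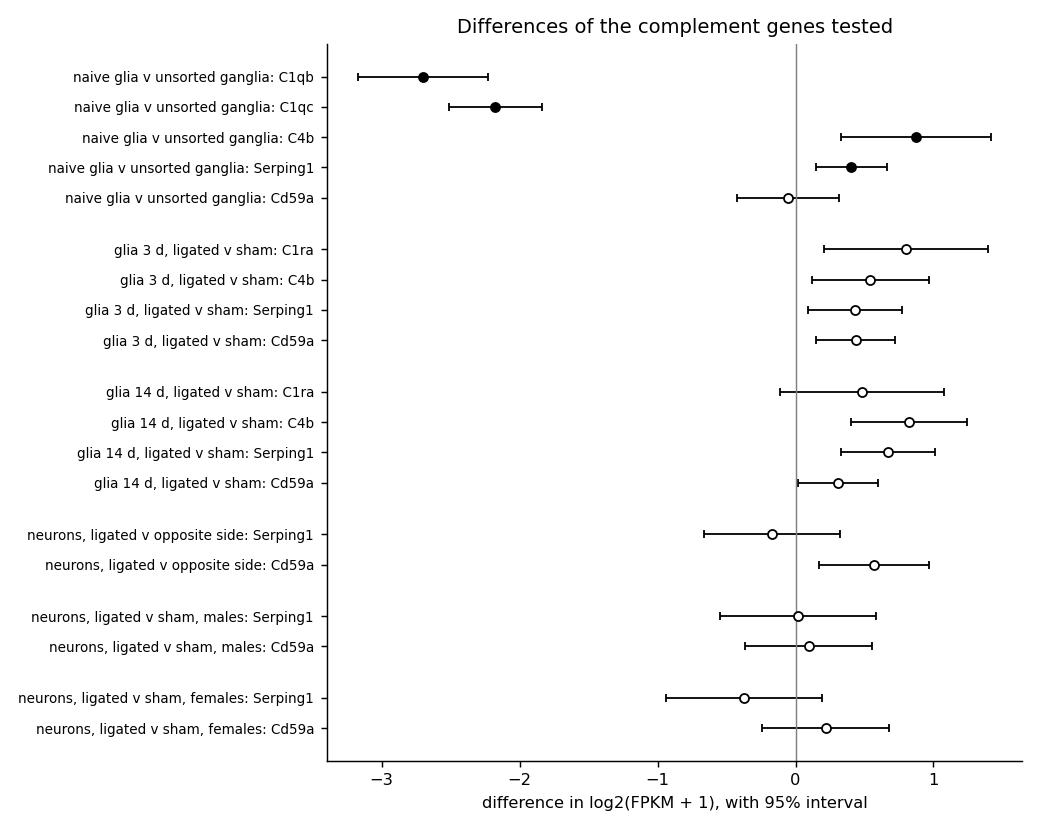
Difference in log2(FPKM + 1) with its 95% interval (x axis) for the complement genes tested except C1qa, which is not drawn, by comparison. Points are filled for a limma adjusted p under 0.05 and open otherwise. C4b and Serping1 are called higher in naive glia than in ganglia. C1qb and C1qc are called lower there, which follows from the filter. No gene is called after surgery although all 4 glial differences are positive at both times. Among them, C1ra passed the filter mostly through ligated libraries.

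Within a library, the order of the genes can be compared without regard to scaling between tables. In all 24 libraries of glia and ganglia Cd59a lay above Serping1, with ratios from 1.68 to 4.63. In all 20 neuron libraries Cd59a lay below Serping1, with ratios from 0.160 to 0.966. In naive glia the order was Cd59a, Serping1, C4b in every library, and C4b was 0.247 to 0.555 of Serping1. After surgery the ratio of C4b to Serping1 was 0.633 to 1.29 in 3-day sham, 0.670 to 1.18 in 3-day ligated, 0.478 to 0.560 in 14-day sham and 0.501 to 0.616 in 14-day ligated glia. The last pair of groups overlapped, and so did the 3-day pair.

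By mean level, Cd59a in the glia after surgery ran from 202 ± 20.1 FPKM (SD, n = 4) in 3-day sham over 219 ± 33.5 in 14-day sham and 270.1 ± 20.3 in 14-day ligated to 275 ± 38.7 in 3-day ligated glia. Serping1 ran from 67.4 ± 11.1 in 3-day sham over 81.5 ± 9.84 in 14-day sham and 90.8 ± 10.8 in 3-day ligated to 131 ± 23.3 in 14-day ligated glia. C4b ran from 41.7 ± 5.99 in 14-day sham over 57.3 ± 11.6 in 3-day sham and 75.6 ± 19.1 in 14-day ligated to 83.5 ± 13.6 in 3-day ligated glia. Neighbours in each order overlapped, except that for Serping1 every 14-day ligated library lay above every 3-day ligated one, as 2.33% of all genes did. In neurons Serping1 ran from 248 ± 31.9 FPKM (ligated side, n = 4) to 408 ± 93.4 FPKM (ligated males, n = 3), and Cd59a from 101 ± 17.7 (sham females, n = 3) to 169 ± 35.4 (ligated side, n = 4). Their neighbouring groups overlapped throughout.

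The genes whose deviations from the group means were most like those of a member were found by Pearson's r of log2(FPKM + 1), as a description over libraries that share preparation and scaling. Over the 16 glial libraries after surgery these were Gm11960, Mrpl23 and Raph1 for C4b (r = 0.87 to 0.80), H2-K1, Ube2v1 and Zfand1 for Serping1 (0.85 to 0.80), Ndufaf2, Cdc73 and Fbxl17 for Cd59a (0.89 to 0.86), and Ccdc117, Zw10 and Vrk3 for C1ra (0.86 to 0.85). The complement genes were less like each other. C4b had r = 0.19 with Serping1, 0.45 with Cd59a and -0.12 with C1ra, and Serping1 had r = 0.04 with Cd59a. Over the 20 neuron libraries, the genes most like Serping1 were Slc4a11, Entpd3 and Hspa12b (0.92 to 0.89) and those most like Cd59a were Cops5, Psenen and Arl6 (0.87 to 0.84). Serping1 and Cd59a had r = -0.38 with each other there.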

How the data were processed

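Gene expression was deposited by the authors as FPKM in 3 tables (naive preparations, glia after surgery, neurons), made from reads that STAR, SAMtools and Cufflinks processed against mm10, per the submitters' processing notes, which give no versions or roles. The authors also deposited DESeq2 tables with a mean normalized signal, a log2 fold and an adjusted p-value per gene. Depth is unknown, so precision rests on the 3 or 4 libraries a group. Tables were scaled separately and no test crosses them.

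Lines sharing a gene identifier were summed. limma 3.58.1 (R 4.3.3) was fitted to log2(FPKM + 1) with a mean-variance trend over all groups of a table, on genes at 1 FPKM or more in a number of libraries at least that of the smallest group, with Benjamini-Hochberg adjustment over all genes tested in each of 11 comparisons. Folds understate changes of low genes. The fit was tested on simulated data. Alternatives were a pseudocount of 0.1, no filter, quantile normalization, array weights, only the groups compared, a replicate block and leaving out each library.

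The 9 genes, a wider list of 53 complement genes and the marker lists were chosen with earlier results of these data known. Named genes were the 9, wider-list genes that were called or otherwise the 3 largest differences, fixed markers, near copies, and the 3 genes most alike. The wider list's leading genes in the remaining comparisons are given once under other observations. Python 3.11.15 (pandas 2.3.3, NumPy 2.4.6, Matplotlib 3.10.9) was used for summaries and plots.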

Additional observations from a re-analysis of the deposited data

Results flagged for a closer look

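C1qa in library 3 of the 14-day ligated satellite glia was at 2.16 FPKM, far from the other 3 libraries of its group, which lay at 0.0863 to 0.342 FPKM. It was found among 36 groups of libraries examined over the 9 genes, and chance sets 1 library apart in about 1 of 20 such groups. In the same library C1qb was at 1.45 FPKM, C1qc at 2.01 FPKM and the 14 macrophage markers summed to 50.4 FPKM, which in this group was exceeded by library 1 at 51.9 FPKM.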

How the results depend on the processing

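In naive glia against ganglia, 5 of the genes were called, and 3 to 5 when 1 library was left out. The count of 3 came without ganglion library 1, where C4b (adjusted p = 0.0503) and Serping1 (adjusted p = 0.0599, limma) were lost. With the replicate block 4 were called and Serping1 had an adjusted p of 0.0543. Replicate numbers were shared by name only, since same-numbered naive libraries deviated together with r = 0.0027 to 0.19 and those of the surgery glia with r = -0.08 to 0.07. No replicate block was fitted in the neurons, whose columns carry no replicate numbers that the labels explain, so whether libraries of the ligated and opposite side belong to the same animals was not tested. In all other comparisons 0 of the genes were called under every alternative run. At 14 days the adjusted p ranged from 0.109 to 0.890 for C4b and from 0.0842 to 0.890 for Serping1. Among single-gene differences, 472 kept their direction and side of the threshold, 3 lost the call and 19 changed sign, all of them small and uncalled. Cd59a in naive glia turned from -0.06 to 0.27 after quantile normalization, to 0.0047 with array weights, and ranged from -0.16 to 0.057 with 1 library left out. Between the sham times, Cd59a turned to -0.082 after quantile normalization and C1ra ranged from -0.043 to 0.35 with 1 library left out. In neurons with 1 library left out, Serping1 in males ranged from -0.19 to 0.22 and Cd59a from -0.037 to 0.28, the sex difference of Cd59a from -0.058 to 0.26, and in sham females against males Serping1 ranged from -0.22 to 0.17 and Cd59a from -0.19 to 0.066. The last Serping1 difference also turned to 0.0054 after quantile normalization and to 0.010 with array weights. Over all genes, the 9 calls at 3 days became 14 with the pseudocount of 0.1, 5 with array weights, 4 on the compared groups alone, 1 with no filter and 1 with the block, and the 1 call at 14 days became 10 with array weights, 2 on the compared groups alone and 0 with the block. The 18 calls in female neurons became 35 with array weights and 5 when fitted on the compared groups alone, which also took the 81 between the sides to 30, the 1 in male neurons to 0, the 3 between sham sexes to 2 and the 0 between sham times to 1. The 1 call in male neurons became 2 after quantile normalization and 0 with the lower pseudocount, and the 1 for the difference between times became 0 with the block. The cause was not tested. Depth limits what can be said of C1ra, C3, C3ar1 and, in glia, the C1q chains, whose low FPKM cannot be given a counting error.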

Other observations

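Leading genes of the wider complement list, none of them called by limma, were as follows in the remaining comparisons, as differences in log2(FPKM + 1). For the ligation effect in glia at 14 days minus that at 3 days they were Cfb (1.81), Hc (-1.26) and Cfp, properdin (-1.01). Cfb had almost no signal in the authors' deposited glial tables, with means of 0 and 0.224. Between the sham glia of 14 and 3 days they were C2 (1.13), C8g (0.81) and Cd46 (0.77). In neurons they were C8g (0.83), Csmd1 (-0.80) and C2 (0.62) for ligation in males, and C8g (0.67), Clu (-0.37) and Serping1 (-0.37) for ligation in females. For the sex difference in the ligation effect they were C4a (0.72), Clu (-0.65) and Csmd1 (0.50), and between sham females and males Cd59b (-0.73), Masp1 (-0.45) and Clu (0.44).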
